A study of Homo sapiens with 4 samples.

Results

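The genes of the TGF-beta and BMP pathway were followed in MCF10AT cells, an established human line derived from MCF10A breast epithelium, which the labels give as HRasG12V-transformed. The set holds 39 named pathway components, of the 58233 genes in the deposited count table: ligands, receptors, co-receptors, SMAD proteins, and the secreted, membrane and intracellular proteins that hold signalling back. All 39 were found by symbol, and 36 had enough counts to be tested. INHBB, BMP7 and GREM1 did not. The members were listed as components of the pathway. Bulk RNA-seq libraries came in 2 groups of 2 replicates. One group has the genotype Bromo+/- on its labels, which do not spell it out, and the other is the non-target control. Both groups carry the HRAS transgene and were grown in a medium with insulin, hydrocortisone, cholera toxin, epidermal growth factor, donor horse serum, penicillin and streptomycin. The series' design text speaks of EP300 shRNAs, and the protocol describes lentiviral shRNA with polybrene and puromycin selection, without tying it to single samples. No label says that replicates came from separate cultures or clones, and each pair of columns shares a number of unknown meaning, so the p-values reflect the spread among libraries, which may be technical.

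TGF-beta, activin and BMP ligands are secreted dimers that bring type II and type I receptor kinases together at the cell surface. TGF-beta and activin receptors phosphorylate SMAD2 and SMAD3, BMP receptors phosphorylate SMAD1, SMAD5 and SMAD9, and both kinds of SMAD join SMAD4 and enter the nucleus. There they recruit co-activators, among them the acetyltransferase p300, whose gene, EP300, the series as a whole concerns. In mammary epithelium TGF-beta restrains proliferation and can drive loss of epithelial character. SMAD6, SMAD7, BAMBI, follistatin and noggin are feedback or extracellular inhibitors of these routes.

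The upstream sequences of 3 members are shown, because INHBA and TGFB1 were the leading ligand transcripts of the control libraries and of libraries with the Bromo+/- label, and SMAD6 had the largest fold change of the set. Each is the 250 bases before the RefSeq gene start on GRCh38.p14, read 5′ to 3′ on the gene's strand. The SMAD6 window is chr15:66701986-66702235 on the plus strand, with the palindromic SMAD box GTCTAGAC in capitals. The TGFB1 window is chr19:41353923-41354172 on the minus strand, with matches to the GC box GGGCGG, on either strand, in capitals. The INHBA window is chr7:41703091-41703340 on the minus strand, with the letters of a TATA box, TATAAA, in capitals.
SMAD6: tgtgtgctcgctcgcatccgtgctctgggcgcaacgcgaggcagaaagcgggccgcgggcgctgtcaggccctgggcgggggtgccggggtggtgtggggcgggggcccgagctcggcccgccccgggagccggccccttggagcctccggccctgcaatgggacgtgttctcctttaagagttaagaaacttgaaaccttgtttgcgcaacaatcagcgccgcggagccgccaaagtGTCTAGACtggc
TGFB1: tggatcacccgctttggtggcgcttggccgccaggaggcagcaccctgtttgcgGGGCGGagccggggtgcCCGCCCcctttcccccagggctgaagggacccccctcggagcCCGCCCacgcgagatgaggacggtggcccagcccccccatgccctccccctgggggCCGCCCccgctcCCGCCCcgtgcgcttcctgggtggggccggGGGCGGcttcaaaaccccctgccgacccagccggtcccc
INHBA: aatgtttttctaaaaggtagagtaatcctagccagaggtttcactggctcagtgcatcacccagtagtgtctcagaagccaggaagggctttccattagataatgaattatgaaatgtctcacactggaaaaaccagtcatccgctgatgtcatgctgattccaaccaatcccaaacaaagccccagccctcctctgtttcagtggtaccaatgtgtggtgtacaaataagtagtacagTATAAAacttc
The SMAD box of SMAD6 begins 12 bases before the gene start. Both strands were searched, and GTCTAGAC occurs in 0.182% of 35116 such windows and in 1 of the 35 members with a window. The TGFB1 window has 6 GC boxes and 21 CpG dinucleotides. GGGCGG occurs in 42.6% of windows and in 24 of 35 members. The INHBA window has 1 CpG and a TATAAA that begins 11 bases before the gene start, a motif found in 10.7% of windows and in 5 of 35 members (BMPR1A, FSTL3, GDF11, INHBA and TGFB2). The AP-1 motif TGANTCA occurs in 6.57% of windows and in FST and SMAD1 among the members. The GC-rich SMAD element GGCGCC occurs in 16.4% of windows and in 13 of 35 members, and in none of the 3 shown. The INHBA window lies wholly inside the gene model that was counted, whose 5′ end is 2494 bases farther upstream, and GENCODE v29 exons cover 18 of its bases, TATAAA included. They cover 8 bases of the SMAD6 window, 4 of them in the SMAD box, and 0 of the TGFB1 window. These matches describe letters in a window, and binding was not measured.

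The libraries held 10835237 to 11975396 counts. Values below are in CPM, the count of a gene relative to its library total, scaled for library composition. A fold change is that of libraries with the Bromo+/- label over control on the log2 scale, with its standard error (SE) from edgeR's quasi-likelihood fit, and a change is called at an adjusted p of 0.05 over all 13179 genes tested. EP300 itself stood at 121 and 126 CPM in libraries with the Bromo+/- label and at 106 and 111 CPM in the controls, so it was not lower (log2 fold change 0.19, SE 0.06, adjusted p = 0.00701, edgeR). With the DESeq2 Wald test, or without control replicate 1, EP300 did not pass (adjusted p = 0.0639 and 0.162). Gene-level counts cannot show an altered exon, so every direction below rests on the group labels. The epithelial identity on the labels was not the same in both groups. All 10 epithelial markers examined were called lower in libraries with the Bromo+/- label, against 27.1% of all genes tested. Their summed level was 10412 and 10720 CPM in the controls and 1441 and 1500 CPM in libraries with the Bromo+/- label. CDH1 and TP63 were close to 0 there (60 and 8 counts in all), and KRT14 had 0 counts. Summed fibroblast markers went the other way, from 41.4 and 43.5 CPM in the controls to 103 and 106 CPM, while COL3A1 and LUM had 0 counts in every library. Of 9 fibroblast markers 3 were tested, DCN and COL1A1 higher and FAP lower, and DCN (80.2 and 78.0 CPM against 0.764 and 0.692) made up most of the sum under the Bromo+/- label and FAP (16.9 and 16.7 CPM against 39.0 and 37.7) most of it in the controls. The endothelial marker VWF and the leukocyte marker CD3E were at 0 in all libraries as well, and the summed leukocyte markers were at most 25.5 CPM, with all 3 of 7 that could be tested lower. The part of this shift in the results below was not tested, and in bulk RNA fewer cells of a type and less RNA per cell cannot be told apart.

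Of the 36 tested members 26 were called, 17 higher and 9 lower. That is 72.2% of them, against a background of 53.5% of all genes tested (26.4% higher and 27.1% lower, or 3485 and 3570 genes, a split that became 4433 and 2794 with library size alone). Members that were called and changed 2-fold or more numbered 12, which is 33.3% against 15.0% of all genes. Of these 9 were higher and 3 lower, against 7.44% and 7.53% of all genes. The 2 groups did not overlap for 33 of the 36, against 75.2% of all genes. The median log2 fold change was 0.23 for the members and 0.01 for all genes, and the median size of change, whatever its sign, was 0.49 against 0.28.

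**Figure D1:**
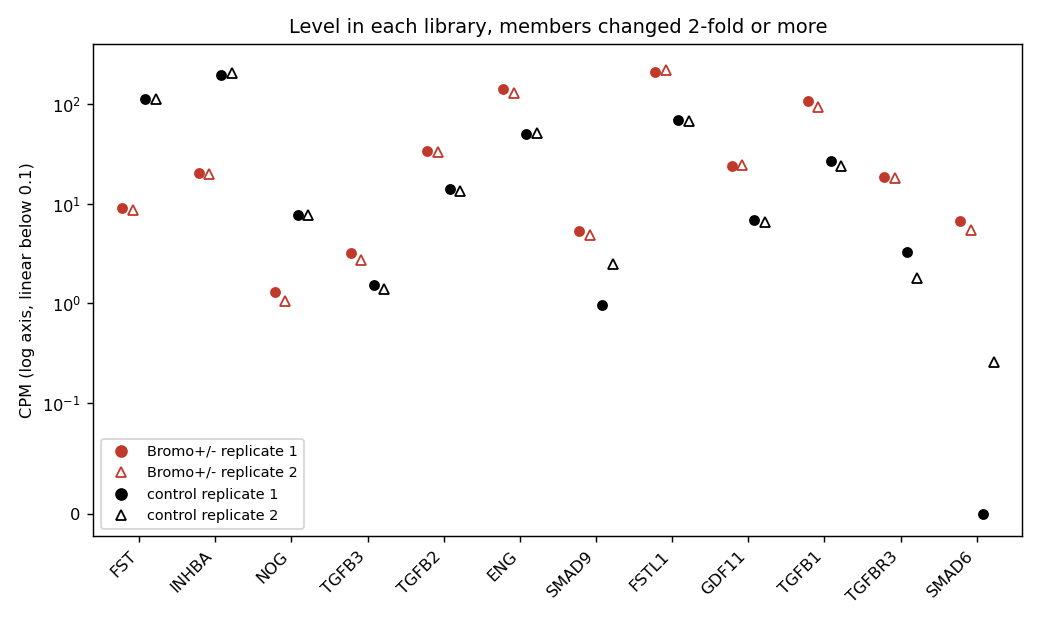
CPM in each of the 4 libraries (red, Bromo+/-; black, control; symbols, replicates) for the 12 members called and changed 2-fold or more, ordered by fold change, on a log axis that is linear below 0.1 CPM. The red and black symbols do not overlap for any of the 12. They were picked by call and fold change, which favours such separation, and 75.2% of all genes tested did not overlap either. The 2 control libraries lie farthest apart for SMAD9, TGFBR3 and SMAD6.

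The leading ligand transcript differed between the groups. INHBA, which encodes the activin A chain (chromosome 7, 41667168 to 41705834, GRCh38), stood at 20.5 and 19.9 CPM in libraries with the Bromo+/- label and at 197 and 204 CPM in the controls. All TGF-beta isoforms went the other way. TGFB1, the most widely expressed isoform (chromosome 19, 41301587 to 41353911), stood at 108 and 92.9 CPM against 27.0 and 24.1 CPM in the controls. Within each group the 2 libraries lay close together and the groups were far apart for both genes. INHBA fell by 3.31 on the log2 scale (SE 0.08, adjusted p = 3.47e-117, edgeR), 9.94-fold, and TGFB1 rose by 1.98 (SE 0.08, adjusted p = 4.45e-63), 3.94-fold. Exons of TGFB1 share 215 of their 3238 bases with HNRNPUL1 on the opposite strand. Reads in shared exons appear not to have been assigned to either gene: of 210 genes lying at least 99% inside opposite-strand exons, each expected to draw 100 counts or more from its partner by length, all 210 had 0 counts. The TGFB1 values thus rest on the rest of the gene, and antisense reads outside annotated exons cannot be told apart from its own. Among the other members GDF11, ENG, FSTL1, ACVR2A, SMAD3, SMURF1 and SMURF2 also share exon bases with an opposite-strand gene that had counts. The shared part was at most 9.37% of their length (SMURF1). Overlaps with genes at 0 counts in every library were not listed, so other members may share exon bases too.

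TGFB2, an isoform with a large role in development, stood at 33.9 and 33.0 CPM against 14.0 and 13.3 CPM in the controls. It rose by 1.29 (SE 0.11, adjusted p = 2.66e-25, edgeR). TGFB3 was the scarcest isoform on the scale of CPM per kilobase in both groups, at 3.18 and 2.75 CPM against 1.53 and 1.38 CPM. Its rise of 1.03 (SE 0.32, adjusted p = 0.00242) was not called with the DESeq2 Wald test (adjusted p = 0.1). GDF11, a ligand related to myostatin that acts through activin receptors, stood at 23.7 and 24.3 CPM against 6.78 and 6.49 CPM, and rose by 1.85 (SE 0.15, adjusted p = 6.24e-31). INHBB, the activin B chain, was not tested: it had 0 counts in libraries with the Bromo+/- label and 12 in the controls, which makes it at least 4.28-fold lower when the empty group is set to a floor of 3 counts in total (counting error only).

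Levels of different genes were compared as CPM per kilobase of the deposited exon length. On that scale INHBA led the 10 ligands in both control libraries, at 24.2 ± 0.62 (SD, n = 2), ahead of TGFB1 at 7.90 ± 0.63. In libraries with the Bromo+/- label TGFB1 led at 31.0 ± 3.33, followed by TGFB2 at 6.49 ± 0.13, GDF11 at 2.77 ± 0.05 and INHBA at 2.43 ± 0.04, and no neighbouring pair among the 8 ligands with counts overlapped between genes. In the controls the ranges of BMP2 and BMP6 overlapped, as did those of BMP6 and TGFB2, and of GDF11 and BMP4. The summed level of all 10 ligands was 50.6 and 45.5 in libraries with the Bromo+/- label and 43.3 and 41.9 in the controls. INHBA made up 54.8% and 58.7% of that sum in the controls and 4.87% and 5.27% in libraries with the Bromo+/- label. The share of TGFB1 was 19.3% and 17.8% in the controls and 66.0% and 63.0% in libraries with the Bromo+/- label. Such shares need no scaling between libraries but do depend on the exon lengths of the gene models and on which ligands are listed. GDF15, a ligand outside the 10, is not in the sum. It stood at 17.3 per kilobase in libraries with the Bromo+/- label and at 13.7 in the controls.

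**Figure D2:**
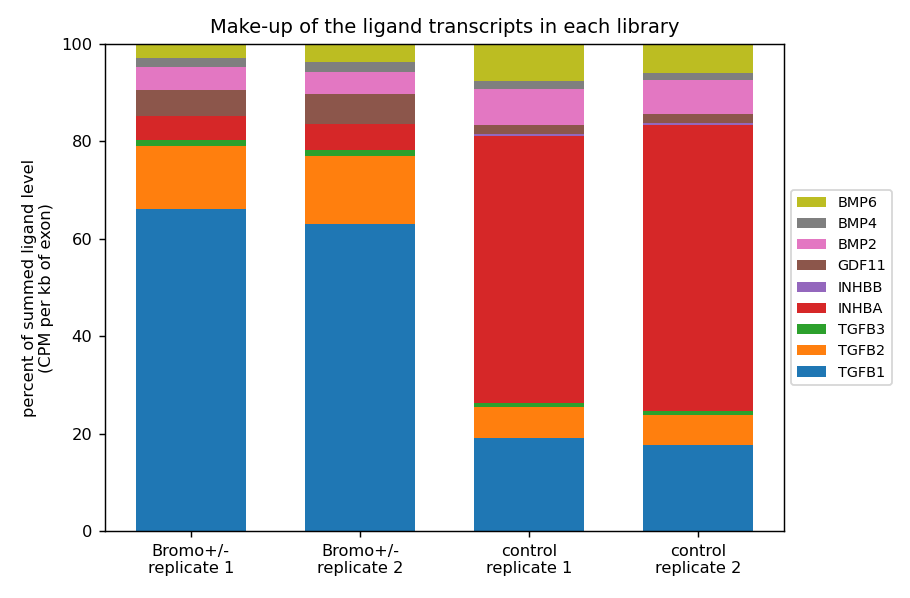
Share of each ligand in the summed level of the member ligands (CPM per kilobase of exon, percent) in each library, with replicates as separate bars. INHBA fills 54.8% and 58.7% of the control bars, and TGFB1 fills 63.0% and 66.0% of the bars labelled Bromo+/-.

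Of the 3 BMP ligands tested 2 fell (66.7%, against 27.1% of all genes called lower and 53.5% called at all). The remaining 1 did not pass, and 0 of the 3 changed 2-fold, against 15.0% of all genes. BMP2 stood at 8.64 and 7.35 CPM in libraries with the Bromo+/- label and at 11.6 and 10.6 CPM in the controls. It fell by 0.47 (SE 0.15, adjusted p = 0.00644, edgeR), a call that ended with the DESeq2 Wald test, without Bromo+/- replicate 2 and without control replicate 1 (adjusted p = 0.118, 0.086 and 0.07). BMP6, known for its part in iron balance, stood at 4.08 and 4.61 CPM against 9.07 and 7.004 CPM and fell by 0.88 (SE 0.19, adjusted p = 2.06e-05). BMP4 stood at 2.69 and 3.01 CPM against 2.39 and 1.82 CPM and did not pass (log2 fold change 0.44, 95% interval -0.12 to 1.01). BMP7 had 0 counts in every library.

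The signalling receptors changed by less than 2-fold, and about as much as other genes (median size of change 0.31 on the log2 scale, against 0.28 for all genes tested). TGFBR2, the type II receptor of TGF-beta, was the most abundant receptor transcript in both groups per kilobase, at 95.4 ± 1.08 in libraries with the Bromo+/- label and 76.7 ± 0.25 in the controls. It stood at 445 and 452 CPM against 362 and 360 CPM, and rose by 0.31 (SE 0.05, adjusted p = 1.53e-08, edgeR). Its partner TGFBR1, the type I receptor, overlapped between the groups, with 39.4 and 46.1 CPM against 43.5 and 47.2 CPM (log2 fold change -0.09, 95% interval -0.25 to 0.07). Within a library TGFBR2 was 14.3 to 16.4 times the level of TGFBR1 per kilobase in libraries with the Bromo+/- label and 11.1 to 12.1 times in the controls.

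Of the 5 type I receptors 2 rose (40.0%, against 26.4% of all genes called higher and 53.5% called at all) and 3 did not pass. ACVR1B, the activin type I receptor, stood at 31.2 and 30.3 CPM against 22.8 and 25.2 CPM (log2 fold change 0.35, SE 0.10, adjusted p = 0.000953, edgeR), and its call ended without control replicate 1 (adjusted p = 0.0585). BMPR1A, a BMP type I receptor, stood at 16.6 and 15.5 CPM against 12.5 and 12.9 CPM (0.34, SE 0.13, adjusted p = 0.0178). That call did not hold with the DESeq2 Wald test or without Bromo+/- replicate 1, control replicate 1 or control replicate 2 (adjusted p = 0.183, 0.117, 0.107 and 0.0749). ACVR1 (0.14, 95% interval -0.10 to 0.38) and BMPR1B (-0.27, -0.58 to 0.04) did not pass.

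Of the 4 type II receptors TGFBR2 and BMPR2 rose and the activin receptors did not pass, which is 50.0% called against 53.5% of all genes. BMPR2, the BMP type II receptor, stood at 61.9 and 68.4 CPM against 44.5 and 46.9 CPM, and rose by 0.51 (SE 0.08, adjusted p = 1.17e-09, edgeR). ACVR2A was at 6.77 and 6.55 CPM against 8.12 and 7.96 CPM (log2 fold change -0.27, 95% interval -0.61 to 0.07). ACVR2A shares 430 exon bases, 6.35% of its length, with ORC4 on the opposite strand. ACVR2B was at 7.34 and 8.06 CPM against 10.6 and 8.82 CPM (-0.33, -0.65 to -0.02, adjusted p = 0.0702), and passed without control replicate 2 (adjusted p = 0.0449). Over the 9 type I and type II receptors the median size of change was 0.31 on the log2 scale, against 0.28 for all genes tested, and 0 of them changed 2-fold, against 15.0% of all genes.

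Both co-receptors rose. TGFBR3, or betaglycan, which presents TGF-beta ligands, TGF-beta2 above all, to the signalling receptors (chromosome 1, 91680343 to 91906335), stood at 18.7 and 18.2 CPM in libraries with the Bromo+/- label and at 3.25 and 1.82 CPM in the controls. It rose by 2.88 (SE 0.22, adjusted p = 2.27e-38, edgeR), 7.36-fold. ENG, or endoglin, a co-receptor best known from endothelium (chromosome 9, 127815012 to 127854756), stood at 142 and 129 CPM against 50.1 and 51.4 CPM and rose by 1.42 (SE 0.07, adjusted p = 4.26e-54). The 6 endothelial markers, without ENG, summed to 9.29 and 8.50 CPM against 20.0 and 16.7 CPM in the controls, with 1 higher (KDR) and 1 lower (ROBO4) of 3 tested. ROBO4, at 5.54 and 4.16 CPM against 15.4 and 13.7 CPM, made up most of the sum in the controls. TGFBR3 was last of the 11 receptors and co-receptors per kilobase in the controls (0.29 ± 0.12) and the seventh in libraries with the Bromo+/- label (2.12 ± 0.03). ENG was second in both groups.

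**Figure D3:**
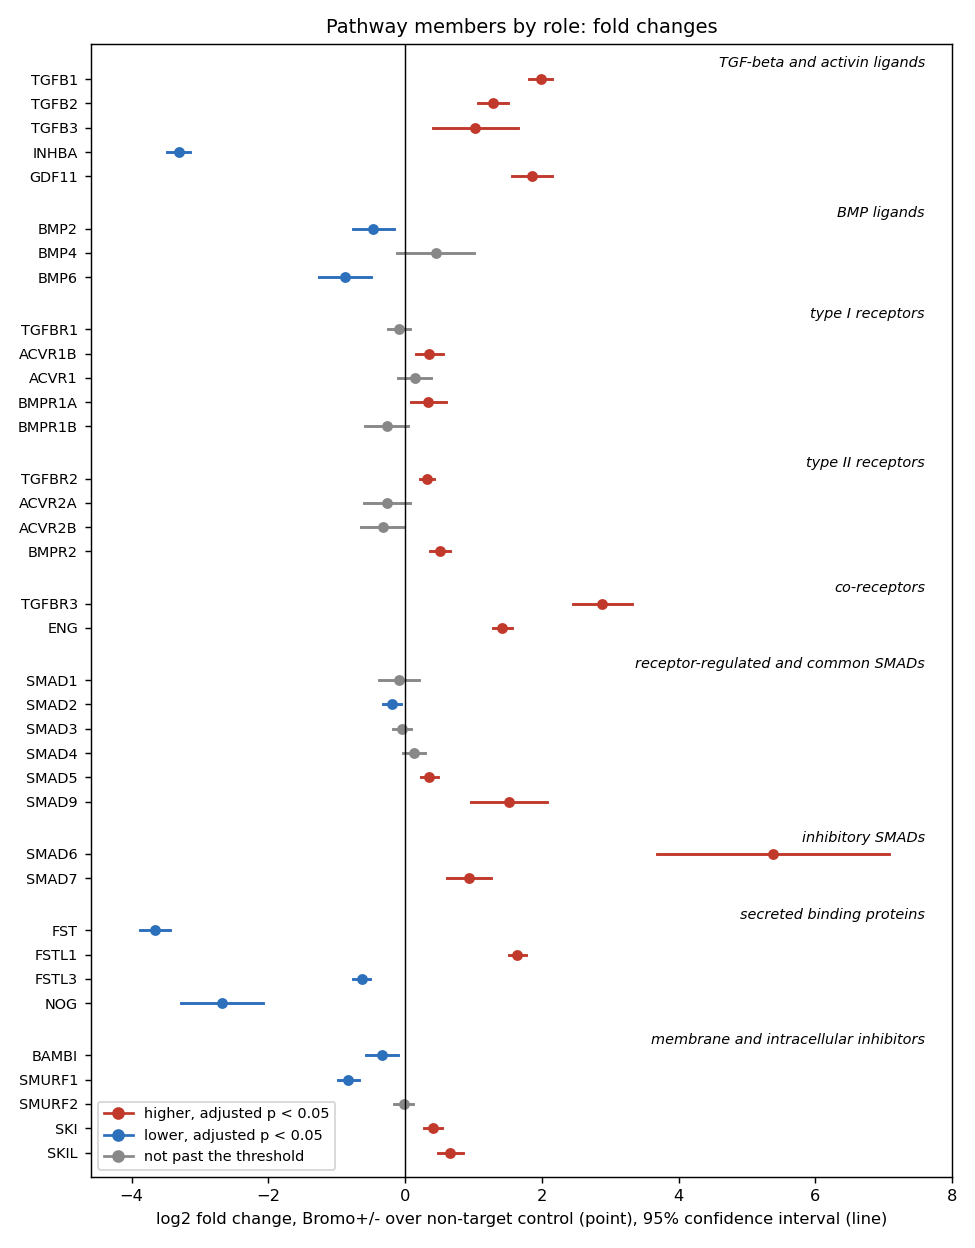
Log2 fold change, Bromo+/- over control, of the 36 tested members by role, as points with 95% confidence intervals from the fit, coloured by call. Type I and type II receptors lie between -0.33 and 0.51, while ligands, co-receptors, inhibitory SMADs and secreted proteins spread from -3.66 to 5.38.

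Among the SMADs that carry the signal, SMAD1, SMAD3 and SMAD4 did not pass and SMAD9 had the largest change. SMAD3, which mediates much of the transcriptional response to TGF-beta, overlapped between the groups at 88.8 and 97.1 CPM against 94.2 and 97.3 CPM (log2 fold change -0.04, 95% interval -0.17 to 0.09), and the sign of its value turned with upper quartile scaling, library size alone and without Bromo+/- replicate 1. SMAD2 stood at 75.0 and 81.0 CPM against 85.6 and 92.4 CPM and fell by 0.19 (SE 0.07, adjusted p = 0.0117, edgeR). It was not called with upper quartile scaling, library size alone and the DESeq2 Wald test (adjusted p = 0.0954, 0.176 and 0.0968), and without Bromo+/- replicate 1 or control replicate 2 (0.107 and 0.26). SMAD4, the common partner, stood at 45.3 and 46.9 CPM against 39.9 and 44.1 CPM and did not pass (0.13, 95% interval -0.03 to 0.29), though it did with upper quartile scaling and with library size alone (adjusted p = 0.0392 and 0.0191).

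On the BMP side SMAD5 stood at 115 and 132 CPM against 93.0 and 100.1 CPM and rose by 0.35 (SE 0.06, adjusted p = 4.3e-07, edgeR). SMAD1 did not pass, at 9.54 and 10.3 CPM against 10.5 and 10.6 CPM (log2 fold change -0.10, 95% interval -0.39 to 0.20). SMAD9, the least abundant of the signal-carrying SMADs per kilobase (0.89 ± 0.05 against 0.30 ± 0.19), stood at 5.30 and 4.87 CPM against 0.955 and 2.51 CPM. The control libraries, with 10 and 29 counts, differed more from each other than libraries with the Bromo+/- label did. SMAD9 rose by 1.52 (SE 0.28, adjusted p = 1.37e-07), by 1.01 without control replicate 1 and by 2.40 without control replicate 2. SMAD5 and SMAD3 led the SMADs per kilobase in both groups, with separate ranges in libraries with the Bromo+/- label (14.1 ± 1.38 and 10.2 ± 0.64) and overlapping ones in the controls (11.001 ± 0.57 and 10.5 ± 0.24). The per-kilobase level of SMAD2 (2.15 and 2.45) is read over a gene model of 36366 exon bases, against 9113 for SMAD3. Without the length SMAD3 still exceeded SMAD2, by 0.25 on the log2 scale in libraries with the Bromo+/- label and by 0.11 in the controls.

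Both inhibitory SMADs rose, where 26.4% of all genes tested were called higher. SMAD6, which mainly restrains BMP signalling (chromosome 15, 66702228 to 66782848), stood at 6.77 and 5.40 CPM in libraries with the Bromo+/- label and at 0 and 0.259 CPM in the controls. The summed counts were 144 and 3, and the ratio of levels was 44.9, with a 95% exact interval for counting error of 15.1 to 220.3 (adjusted p = 6.96e-26, edgeR). All 3 control counts came from control replicate 2, so without it the controls stood at 0, and the call held. Without control replicate 1, which had 0 counts, the fitted log2 fold change was 4.497 in place of 5.38, and the call held as well. SMAD7, which restrains both routes, stood at 11.4 and 13.5 CPM against 5.92 and 7.004 CPM and rose by 0.93 (SE 0.16, adjusted p = 5.67e-08). SMAD6 and SMAD7 transcripts were both below SMAD4 per kilobase in the controls, and in libraries with the Bromo+/- label the range of SMAD7 overlapped that of SMAD4.

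Secreted binding proteins split. FST, or follistatin, which binds and neutralises activin (chromosome 5, 53480409 to 53487134), stood at 9.13 and 8.68 CPM in libraries with the Bromo+/- label and at 112 and 113 CPM in the controls. It fell by 3.66 (SE 0.11, adjusted p = 1.02e-105, edgeR), 12.6-fold, so transcripts of the activin A chain and of its inhibitor were both lower. Within a library the level of INHBA relative to FST, per kilobase, was 0.801 and 0.821 in libraries with the Bromo+/- label, above the 0.628 and 0.648 of the controls. FSTL3, a relative of follistatin that also binds activin, fell less, from 113 and 114 CPM to 74.6 and 71.4 CPM (log2 fold change -0.64, SE 0.07, adjusted p = 7.93e-18). FST and FSTL3 stood at near levels per kilobase in the controls (37.9 ± 0.12 and 37.1 ± 0.32, ranges separate), and FST was 0.126 times FSTL3 in both libraries labelled Bromo+/-.

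NOG, or noggin, a BMP antagonist (chromosome 17, 56593699 to 56595590), stood at 1.30 and 1.06 CPM against 7.64 and 7.70 CPM and fell by 2.68 (SE 0.31, adjusted p = 2.25e-20, edgeR), 6.40-fold. FSTL1, a secreted glycoprotein with a follistatin-like domain (chromosome 3, 120392293 to 120451253), went up instead, to 209 and 219 CPM from 69.3 and 68.1 CPM (log2 fold change 1.64, SE 0.06, adjusted p = 2.44e-72). GREM1, the BMP antagonist gremlin, had 0 counts in all libraries.

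The 5 members grouped as membrane and intracellular inhibitors, apart from the inhibitory SMADs, changed by less than 2-fold. SMURF1, a ubiquitin ligase that acts on BMP SMADs and receptors, stood at 42.9 and 41.4 CPM against 77.0 and 73.2 CPM and fell by 0.83 (SE 0.08, adjusted p = 4.72e-22, edgeR). Its relative SMURF2 overlapped between the groups, at 72.9 and 76.1 CPM against 75.3 and 75.7 CPM (log2 fold change -0.02, 95% interval -0.16 to 0.12), with a sign that turned under the same alternatives as that of SMAD3. The co-repressors of SMAD-driven transcription rose: SKIL, itself a TGF-beta target, stood at 36.2 and 38.0 CPM against 23.7 and 23.2 CPM (0.66, SE 0.10, adjusted p = 1.32e-10), and SKI at 112 and 105 CPM against 78.7 and 85.0 CPM (0.41, SE 0.07, adjusted p = 1.17e-08). BAMBI, a receptor-like protein without a kinase, stood at 14.4 and 15.2 CPM against 18.8 and 18.8 CPM (-0.34, SE 0.12, adjusted p = 0.0102). The BAMBI call ended under 5 alternatives: library size alone, the DESeq2 Wald test and leaving out Bromo+/- replicate 1 or either control library (adjusted p = 0.0517 to 0.132).

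Grouped by layer, the 15 receptors and signal-carrying SMADs had 7 calls (46.7%, against 53.5% of all genes) and 1 called change of 2-fold or more (6.67%, against 15.0%), and a median size of change of 0.27. The 16 tested ligands, co-receptors, inhibitory SMADs and secreted proteins had 15 calls (93.8%), 11 of them 2-fold or more (68.8%), and a median size of change of 1.53. The 5 membrane and intracellular inhibitors had 4 calls, 0 of them 2-fold or more, and a median size of change of 0.41. All genes tested had a median of 0.28, and these counts are a description of the groups of members, with no test between them. The groups were pooled with earlier results of these data known, so the contrast between them is no separate evidence. They are also mixed inside: of the 3 BMP ligands tested, 0 changed 2-fold.

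Other components of the pathway, from a list without members, were called in 20 of 38 tested genes, 8 higher and 12 lower. That is 52.6%, close to the background of 53.5%. The genes that store and activate TGF-beta held the largest changes of that list. LTBP1, a protein that tethers latent TGF-beta to the matrix, rose to 203 and 213 CPM from 19.4 and 17.5 CPM (log2 fold change 3.50, SE 0.09, adjusted p = 3.29e-120, edgeR), and LTBP2 rose by 1.34 (SE 0.06). Within a library LTBP1 was 0.317 and 0.32 times TGFB1 per kilobase in the controls and 0.828 and 1.01 times in libraries with the Bromo+/- label. Of the integrin chains that release active TGF-beta, both beta chains on the list fell and the alpha chain did not pass. ITGB6 stood at 4.65 and 4.61 CPM against 119 and 120 CPM (-4.69, SE 0.15), and ITGB8 at 23.1 and 23.3 CPM against 64.5 and 71.4 CPM (-1.55, SE 0.09). ITGAV, the alpha chain that pairs with both, stood at 150.0 and 149 CPM against 151 and 160.0 CPM (-0.05, adjusted p = 0.45, edgeR). ITGB6 is an epithelial integrin, and it fell together with the epithelial markers above, whose part was not tested. THBS1, thrombospondin, which can also activate TGF-beta, fell by 0.94 (SE 0.05) from a level of 5496 and 5632 CPM.

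Inside the cell NEDD4L, a ubiquitin ligase for SMAD2 and SMAD3, fell to 106 and 105 CPM from 271 and 269 CPM (-1.36, SE 0.06), and the kinase HIPK2 rose by 1.01 (SE 0.06). Of the 20 other intracellular regulators 8 were called (40.0%, against 53.5% of all genes) and 12 did not pass. RGMA, a BMP co-receptor, fell to 1.06 and 0.531 CPM from 11.7 and 12.1 CPM (-3.87, SE 0.35, adjusted p = 1.58e-36, edgeR). Of 16 further ligands 13 were too scarce to test. GDF15 alone of the tested 3 was called (log2 fold change 0.34, SE 0.09), and it was named after its value was seen, as a single call in its group.

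Textbook target genes of TGF-beta and SMAD3 split evenly. Of 25 tested 9 rose and 10 fell (76.0% called, against 53.5%), with a median log2 fold change of -0.08. CCN2, a matricellular growth factor, rose to 209 and 217 CPM from 31.2 and 27.9 CPM (2.85, SE 0.08, adjusted p = 8.53e-109, edgeR). FN1, fibronectin, rose by 1.69 (SE 0.05), and COL4A1, a basement membrane collagen, by 0.83 (SE 0.05). ADAM19 fell by 1.69 (SE 0.09) and TIMP3, a metalloproteinase inhibitor, by 1.36 (SE 0.08). ITGB6, LTBP2 and PMEPA1 are on this list as well as on that of the other pathway components. TGIF2 is likewise shared between the other pathway components and the BMP targets below. Pathway activity, such as SMAD phosphorylation, was not measured.

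Targets of the BMP SMADs were called in 11 of 14 tested, 7 higher and 4 lower (78.6%, against 53.5%), with a median log2 fold change of 0.44. ID1 and ID3, inhibitors of helix-loop-helix factors and among the most direct BMP targets, stood at 122 and 102 CPM against 57.7 and 58.1 CPM and at 88.0 and 75.7 CPM against 32.8 and 31.9 CPM. Neither overlapped between the groups, which was so for all 14 tested genes of this list and for 75.2% of all genes tested. The log2 fold changes of ID1 and ID3 were 0.95 (SE 0.07, adjusted p = 1.6e-29, edgeR) and 1.34 (SE 0.08, adjusted p = 1.36e-41). ATOH8, a helix-loop-helix factor, had summed counts of 110 and 2, and its level was 51.4 times that of the controls (13.9 to 430.1, 95% exact interval). RUNX2, a factor of bone formation, rose by 1.52 (SE 0.19). GATA3, a luminal mammary factor, fell by 0.86 (SE 0.10), and UNC5B by 1.33 (SE 0.16). JAG1 and HES1, a ligand and a target of NOTCH, fell by 0.62 (SE 0.06) and 1.14 (SE 0.11).

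**Figure D4:**
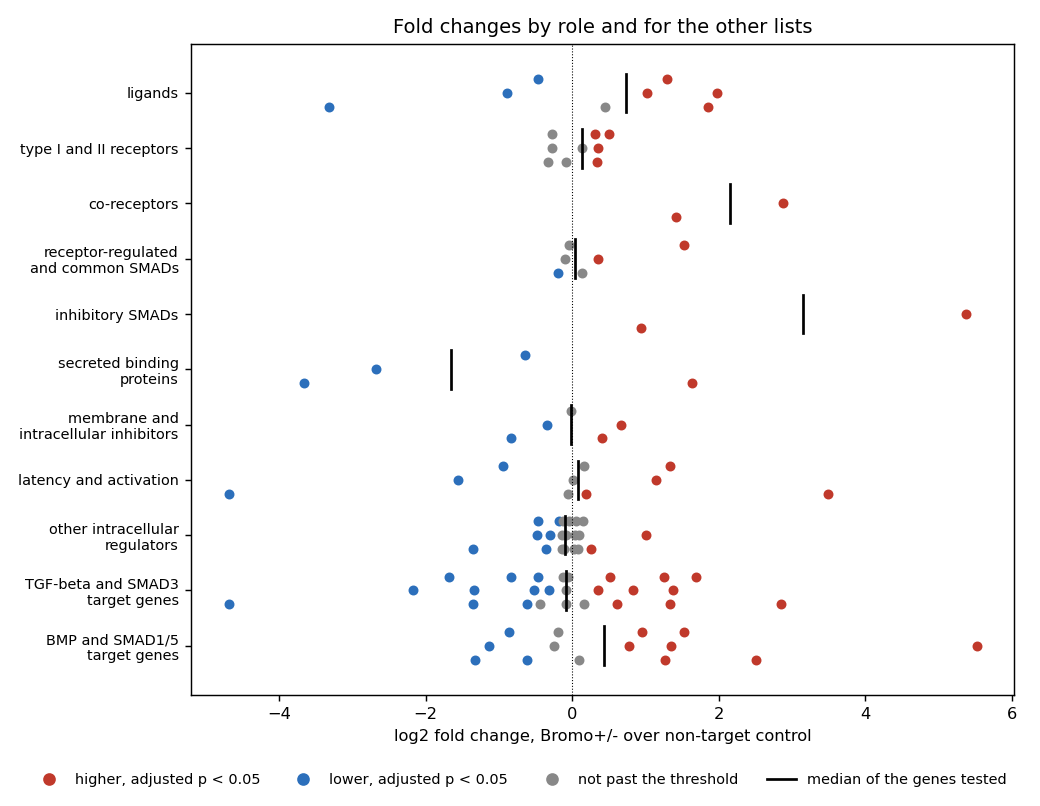
Log2 fold change, Bromo+/- over control, of each tested member by role and of each tested gene of 4 other groups (points coloured by call), with the median of each row as a black line. Receptors and signal-carrying SMADs cluster near 0 apart from SMAD9, and the TGF-beta target row spreads to both sides of a median of -0.08.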

How the data were processed

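Trizol RNA went into a stranded mRNA library kit, per the labels' protocols. The deposited table, 1 for the series, holds raw read counts by Ensembl gene identifier. Reads were aligned with STAR to GRCh38 and counted with featureCounts 1.5.2, per the submitters' processing notes. The annotation release, strand setting and treatment of multi-mapping reads were not stated by any label or header. The deposited exon length, another column, served to compare levels between genes. Columns were matched to samples by name, and those with WT to the non-target control as the remaining group. Of 58233 identifiers, 57392 were named from current symbols and 503 from GENCODE v29.

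The test was edgeR 4.0.16 under R 4.3.3 (filterByExpr, trimmed mean of M values, robust quasi-likelihood fit on 2 residual degrees of freedom, Benjamini-Hochberg adjustment over 13179 genes). Standard errors and 95% intervals come from the fitted model. Alternatives, including DESeq2 1.42.0, are in the closing section. The procedure was tested on simulated data with equal numbers of genes raised and lowered. Far fewer genes were changed there than were called here, so that test does not cover so broad a shift. Libraries of a group were no copies of each other (chi-square per degree of freedom 2.58 and 1.61). Totals of 10835237 to 11975396 counts limit precision for scarce members, and counting intervals cover counting error only. Every member is named, and from each other list the 8 called genes with the smallest adjusted p, of which 1 is not reported here. Members, lists, motifs and tests were chosen with earlier results of these data known. Promoter sequences are from RefSeq (GRCh38.p14), and 35 of 39 members matched.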

Additional observations from a re-analysis of the deposited data

How the results depend on the processing

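Of the 26 members called, 20 kept direction and call under all 11 alternatives, and TGFB3, BMP2, ACVR1B, BMPR1A, SMAD2 and BAMBI lost the call under at least 1. Without 1 library the counts of members were 15 to 17 higher and 7 to 9 lower. The DESeq2 Wald test called 15 and 6 members, 5 other pathway components higher (against 8), and 2292 of all genes higher (against 3485). Library size alone moved the median of all genes to 0.09 and their split from 3485 higher and 3570 lower to 4433 and 2794. It gave SMAD3 a log2 fold change of 0.040 and SMURF2 one of 0.064, and upper quartile scaling gave 0.016 and 0.040, so these uncalled genes changed sign. Leaving out 1 library did so too, with ranges of -0.11 to 0.018 for SMAD3, -0.053 to 0.010 for SMURF2 and -0.21 to 0.022 for TGFBR1, which was called without Bromo+/- replicate 2 (adjusted p = 0.0498, edgeR). No label says that replicate numbers mark anything shared. The replicate block left 17 members higher and 9 lower, with a correlation of 0.05 between deviations of same-numbered libraries. Compared as CPM without length, INHBA to TGFB1 was 2.97 on the log2 scale in the controls (1.62 per kilobase) and -2.31 in libraries with the Bromo+/- label (-3.67). Depth limits the members with few counts, among them BMP4, TGFB3, SMAD9, SMAD6, NOG and the untested INHBB.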
